A study of Mus musculus with 4 samples.

Results

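The genes described here are the 4 Janus kinases, Jak1, Jak2, Jak3 and Tyk2, and 5 of the STAT (signal transducer and activator of transcription) factors, Stat2, Stat3, Stat5a, Stat5b and Stat6. They were chosen by gene symbol, and all 9 were found among the 17823 genes with values in mouse blood. Blood RNA came from C57BL/6 mice, given as adult in the sample labels and as aging in the study's text. The 2 Nar libraries came from mice injected through the tail vein with naringenin (Nar), a flavonoid, and the 2 Ctrl libraries from mice given phosphate-buffered saline, both for 30 days. The libraries carry the numbers 1 and 3 in both groups, and no source used here states whether a library holds 1 mouse or a pool, so the p-values measure the spread between these libraries.

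Janus kinases sit on the inner ends of cytokine receptors, which have no kinase activity of their own. When a cytokine joins its receptor chains, the kinases phosphorylate each other, the receptor and then STAT proteins, which pair up, enter the nucleus and bind DNA. In blood, this relay carries the signals of interferons, interleukins and the growth factors of red cells, platelets and granulocytes. Jak3 works with the common gamma chain of lymphocyte interleukin receptors, Jak2 with the erythropoietin receptor, and Jak1 and Tyk2 with interferon and many interleukin receptors. Stat2 belongs to the type I interferon response, Stat3 to the interleukin-6 and granulocyte growth factor response, Stat5a and Stat5b to many growth factors, and Stat6 to interleukin-4 and interleukin-13.

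Values are FPKM (fragments per kilobase of transcript, scaled to the mapped fragments of the library), so levels of different genes can be set side by side. The read depth behind them is unknown, and no counting error is given. Haemoglobin genes took 95.1% (Ctrl 1), 92.6% (Ctrl 3), 95.7% (Nar 1) and 96.4% (Nar 3) of the summed FPKM, and all other genes share what they leave. The median FPKM of the 5339 genes with a mean of at least 0.5 was 1.85 and 1.97 in Ctrl and 0.89 and 0.74 in Nar. On log2(FPKM + 0.1), which understates changes of low genes, the median log2 fold change of these genes (Nar minus Ctrl) was -1.07, so each member is read against that shift. Fewer cells of a type and less RNA per cell cannot be told apart in whole blood. Genes that define neutrophils, monocytes, B cells, T cells, NK cells, platelets and red cells were detected, and no marker with values was at 0 in any library, while 1 of the 7 red cell markers was blank throughout.

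For all 9 members, the higher Nar library lay below the lower Ctrl library in FPKM. Among the 8 that passed the filter on mean FPKM, the same was true of 8, where 78.3% of all tested genes showed it. With limma, a test that borrows the spread between replicates from all genes, 6 of the 8 fell (Benjamini-Hochberg adjusted p under 0.05 over all tested genes) and 0 rose. The 6 were Jak3, Tyk2, Stat2, Stat3, Stat5b and Stat6. The filter takes the mean of all 4 libraries, so a gene low in Nar can pass through Ctrl alone. That was so for Stat2 and Tyk2, with means of 0.25 and 0.33 FPKM in Nar against 1.485 and 1.175 in Ctrl. Across all tested genes, 39.6% fell by this rule and 0.187% rose. The median log2 fold change of the 8 members was -1.48, which is -0.41 relative to that of all tested genes. For the 4 kinases it was -1.40 and for the 4 tested STAT genes -1.70.

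The calls changed with how libraries were set level. Median-of-ratios scaling makes the typical gene level between libraries. On that scale 0 of the 8 members passed in limma, where 0.599% of tested genes fell and 0.187% rose, and without adjustment 1 member (Stat2) and 797 of 5339 genes were under 0.05. With the haemoglobin genes removed and FPKM rescaled, 0 of the 8 passed in limma, where 5.01% of tested genes fell and 0.263% rose, and without adjustment 3 members and 1147 of 5330 genes were under 0.05.

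Leaving out a library puts 1 library in an arm, so the other group alone gives the spread and the lone library is taken to vary like it. Without Ctrl 1, 0 members and 0% of all tested genes fell (limma), with 6 members and 2682 genes under 0.05 unadjusted. Without Ctrl 3 it was again 0 members and 0% of genes, with 6 members and 2133 genes unadjusted. Without Nar 3, 0 members and 3.99% of genes fell, with 5 members and 1444 genes unadjusted. Without Nar 1, 1 member (Stat2, limma adjusted p = 0.0352) and 4.76% of genes fell, with 7 members and 2082 genes unadjusted. The calls were thus lost for most genes along with the members. Log2 fold changes ranged over these fits from -1.86 to -1.72 for Stat3, -1.71 to -1.50 for Stat5b and -2.50 to -1.92 for Stat2. The ranges were wider for the others, from -1.46 to -0.56 for Jak1, -1.92 to -0.89 for Jak2, -1.78 to -1.0 for Jak3, -1.91 to -1.16 for Tyk2 and -1.77 to -1.09 for Stat6. No member changed direction in these 4 fits. That outcome was set in advance, since both Nar libraries lay below both Ctrl libraries for every member.

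**Figure D1:**
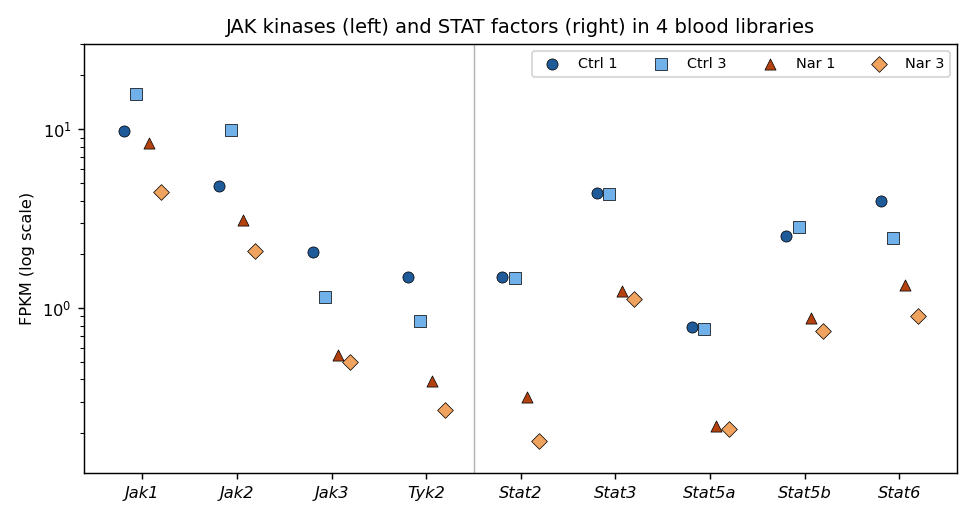
FPKM (log scale) of the 4 Janus kinase genes and 5 STAT genes in each library, with 1 point per library. For each gene the 2 Nar points lie below the 2 Ctrl points, and Jak1 and Jak2 are the highest in all 4 libraries.

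Jak1 and then Jak2 were the most abundant members in every library, although the Ctrl ranges of the pair overlapped. Stat3 came next in Ctrl 1, Ctrl 3 and Nar 3 and Stat6 in Nar 1, and the Nar ranges of these neighbours overlapped. Stat5a was the lowest member except in Nar 3, where Stat2 was. Jak1 (NCBI Gene 16451, chromosome 4, 101151974 to 101265282 in GRCm38.p6) had 9.82 FPKM (Ctrl 1) and 15.78 (Ctrl 3) against 8.44 (Nar 1) and 4.45 (Nar 3). Nar 1 lay close under Ctrl 1, and the libraries within each group differed by more than that gap. Its log2 fold change was -1.01 ± 0.53 (SE, limma adjusted p = 0.133), with a 95% interval from -2.21 to 0.19. Leaving out Nar 3 moved it to -0.56, and leaving out Nar 1 to -1.46. Leaving out Ctrl 3 moved it to -0.67, and leaving out Ctrl 1 to -1.35. Against the median tested gene of its own library, Jak1 stood at 5.31-fold (Ctrl 1) and 8.01-fold (Ctrl 3) against 9.48-fold (Nar 1) and 6.01-fold (Nar 3). On that measure the groups overlapped. Median-of-ratios scaling gave Jak1 a log2 fold change of 0.15 (limma adjusted p = 0.971).

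Jak2 (NCBI Gene 16452, chromosome 19, 29251803 to 29313095), the kinase of the erythropoietin receptor, had 4.83 FPKM (Ctrl 1) and 9.94 (Ctrl 3) against 3.11 (Nar 1) and 2.10 (Nar 3). As for Jak1, Ctrl 3 stood well above Ctrl 1. Its log2 fold change of -1.40 ± 0.50 (SE) lay just outside the threshold, with a limma adjusted p of 0.0508. Without Ctrl 3 the estimate was -0.89, and without Ctrl 1 it was -1.92. With 2 libraries a group, leaving out either moves the estimate equally far in opposite directions.

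Jak3 and Tyk2 were lower in level and had the opposite order in the controls. Jak3 (NCBI Gene 16453, chromosome 8, 71676383 to 71690577) had 2.05 FPKM (Ctrl 1) and 1.15 (Ctrl 3) against 0.55 (Nar 1) and 0.50 (Nar 3). The Nar libraries were close together and under both controls, giving -1.39 ± 0.38 (log2 fold change ± SE, limma adjusted p = 0.0268). Tyk2 (NCBI Gene 54721, chromosome 9, 21104068 to 21131393) had 1.5 FPKM (Ctrl 1) and 0.85 (Ctrl 3) against 0.39 (Nar 1) and 0.27 (Nar 3), giving -1.53 ± 0.41 (log2 fold change ± SE, limma adjusted p = 0.0256). After median-of-ratios scaling, Jak3 in Nar 1 and Nar 3 lay between the 2 controls, while the groups of Tyk2 were separated by the narrow step from 0.526 in Nar 1 to 0.529 in Ctrl 3.

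The balance of the 4 kinases within a library does not depend on scaling between libraries. Jak1 made up 54.0% of the summed kinase FPKM in Ctrl 1 and 56.9% in Ctrl 3, against 67.6% in Nar 1 and 60.8% in Nar 3, so both Nar shares were above both Ctrl shares. With 2 libraries a group, the smallest two-sided p of an exact permutation test is 0.33, so no such test of this difference could pass. Jak2 held 26.5% and 35.9% in Ctrl and 24.9% and 28.7% in Nar, and these overlapped. Jak3 held 11.3% in Ctrl 1 and 4.15% in Ctrl 3, against 4.40% in Nar 1 and 6.83% in Nar 3. The ratio of Jak1 to Jak3 was 4.79 in Ctrl 1 and 13.7 in Ctrl 3, a wider gap than that between Ctrl 3 and either Nar library, at 15.3 and 8.90. In contrast, the ratio of Jak3 to Tyk2 was 1.37 (Ctrl 1) and 1.35 (Ctrl 3) against 1.41 (Nar 1) and 1.85 (Nar 3).

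**Figure D2:**
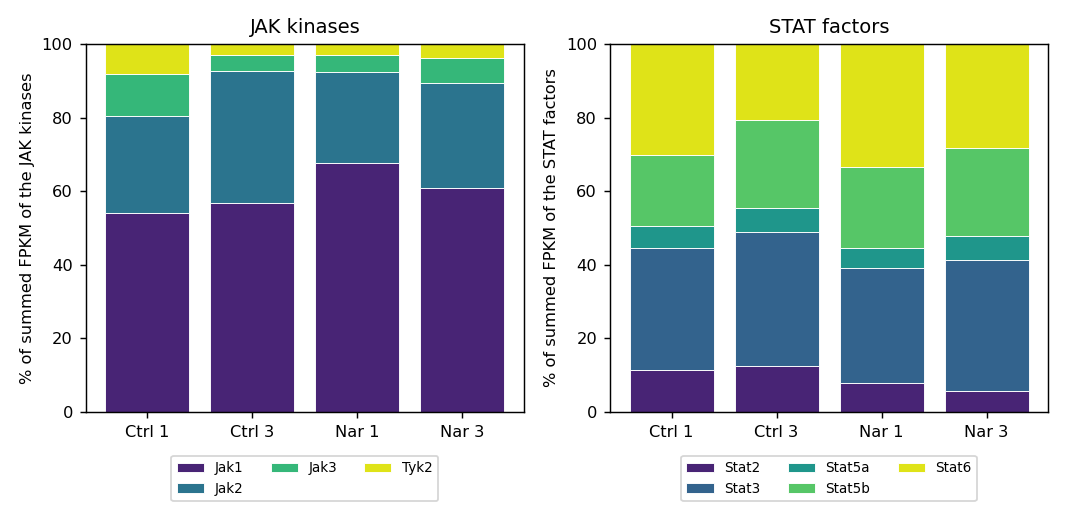
Share of each gene in the summed FPKM of the 4 Janus kinases (left) and the 5 STAT genes (right), in percent, with 1 bar per library. Jak1 holds 54.0% and 56.9% in Ctrl and 67.6% and 60.8% in Nar, and Stat2 goes from 11.4% and 12.4% to 7.98% and 5.68%.

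Stat2 had the lowest log2 fold change of the tested members with the pseudocount of 0.1. Stat2 (NCBI Gene 20847, chromosome 10, 128270498 to 128292853), which works with Irf9 in the type I interferon complex ISGF3, had 1.5 FPKM (Ctrl 1) and 1.47 (Ctrl 3) against 0.32 (Nar 1) and 0.18 (Nar 3). The controls nearly coincided and both Nar values were far below them. Its log2 fold change was -2.21 ± 0.38 (SE, limma adjusted p = 0.00774), and 5.36% of all tested genes had a lower one. Its share of the summed STAT FPKM was 11.4% and 12.4% in Ctrl and 7.98% and 5.68% in Nar, again without overlap. With median-of-ratios scaling the log2 fold change of Stat2 was -1.24 (95% interval -2.11 to -0.36, limma adjusted p = 0.153). At Nar levels this low the pseudocount matters, and the estimate moved from -0.99 with a pseudocount of 1 to -2.58 with 0.01. With a pseudocount of 1, Stat3 (-1.29), Jak2 (-1.16) and Stat5b (-1.02) were lower than Stat2.

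The RefSeq sequence upstream of Stat2 is shown because Stat2 was the only one of the 9 members with a match to any of the 3 DNA patterns searched, which are bound by the pathway's own factors. These are the 250 bases before its start (chr10:128270248-128270497, GRCm38.p6, plus strand), with the matches in capitals.
Stat2: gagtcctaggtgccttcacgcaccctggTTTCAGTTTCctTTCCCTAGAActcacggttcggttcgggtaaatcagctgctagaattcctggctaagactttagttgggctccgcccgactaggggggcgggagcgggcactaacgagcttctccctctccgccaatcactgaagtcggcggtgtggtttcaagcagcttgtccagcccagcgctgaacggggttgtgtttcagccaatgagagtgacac
The capitals mark GAAANNGAAA on the other strand, the core of the interferon-stimulated response element that ISGF3 binds, which begins 222 bases before the start. They also mark TTCNNNNGAA, the spacing preferred by Stat6, which begins 210 bases before the start and matches on both strands. The 2 matches do not overlap. Of the 32851 promoter windows of this length, 2.98% held the first pattern and 5.85% the second on either strand. The 9 members all had windows in the table (2 each for Stat5a and Stat5b). The third pattern searched, TTCNNNGAA, the gamma-activated site of most STAT pairs, was in 7.02% of windows and in none of the members'. A match is a run of letters and not a measured binding site.

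Stat3 and the Stat5 genes lie side by side on chromosome 11. Stat5b (100780731 to 100859004), Stat5a (100859351 to 100885169) and Stat3 (100886806 to 100939594) span 158864 bases in GRCm38.p6, with 346 bases between the Stat5 genes and 1636 between Stat5a and Stat3. Stat3 (NCBI Gene 20848), the factor below interleukin-6 and granulocyte growth factor receptors, had 4.38 FPKM (Ctrl 1) and 4.33 (Ctrl 3) against 1.25 (Nar 1) and 1.13 (Nar 3). The spread within groups was small beside the gap between them, and its log2 fold change was -1.79 ± 0.38 (SE, limma adjusted p = 0.0147). Stat5b (NCBI Gene 20851) had 2.52 FPKM (Ctrl 1) and 2.84 (Ctrl 3) against 0.88 (Nar 1) and 0.75 (Nar 3), giving -1.60 ± 0.35 (log2 fold change ± SE, limma adjusted p = 0.0160).

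Stat5a (NCBI Gene 20850) had 0.79 FPKM (Ctrl 1) and 0.77 (Ctrl 3) against 0.22 (Nar 1) and 0.21 (Nar 3). The groups were far apart, but the mean of 0.4975 FPKM lay just under the filter, and the next member above it was Tyk2 at 0.7525. Stat5a was therefore not among the tested genes. Its log2 difference was -1.48, and in a fit of all 16382 genes above 0 its limma adjusted p was 0.113. In that limma fit 0 members and 0% of all genes passed, with 8 of 9 members and 4978 genes under 0.05 without adjustment. The ratio of Stat3 to Stat5a was 5.54 (Ctrl 1) and 5.62 (Ctrl 3) against 5.68 (Nar 1) and 5.38 (Nar 3). In the same order, that of Stat5b to Stat5a was 3.19, 3.69, 4.00 and 3.57. That of Stat3 to Stat5b was 1.74, 1.52, 1.42 and 1.51. Stat5a and Stat5b are close paralogs, and alignment can split reads between them, so their separate levels are uncertain.

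Stat6 (NCBI Gene 20852, chromosome 10, 127642955 to 127660987), the factor of interleukin-4 signalling, had 3.98 FPKM (Ctrl 1) and 2.46 (Ctrl 3) against 1.34 (Nar 1) and 0.90 (Nar 3). Ctrl 1 was above Ctrl 3, as for Jak3 and Tyk2. Its log2 fold change was -1.43 ± 0.41 (SE, limma adjusted p = 0.0303). Summed over the 5 STAT genes, FPKM was 13.17 (Ctrl 1) and 11.87 (Ctrl 3) against 4.01 (Nar 1) and 3.17 (Nar 3). The 4 kinases summed to 18.20, 27.72, 12.49 and 7.32 FPKM in the same order. The STAT sum thus separated the groups by more than the kinase sum did, and after median-of-ratios scaling Stat2, Stat3, Stat5a, Stat5b and Tyk2 still had both Nar values below both Ctrl values. That is 5 of 9 members and 4 of the 8 tested, where 20.8% of all tested genes showed it.

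**Figure D3:**
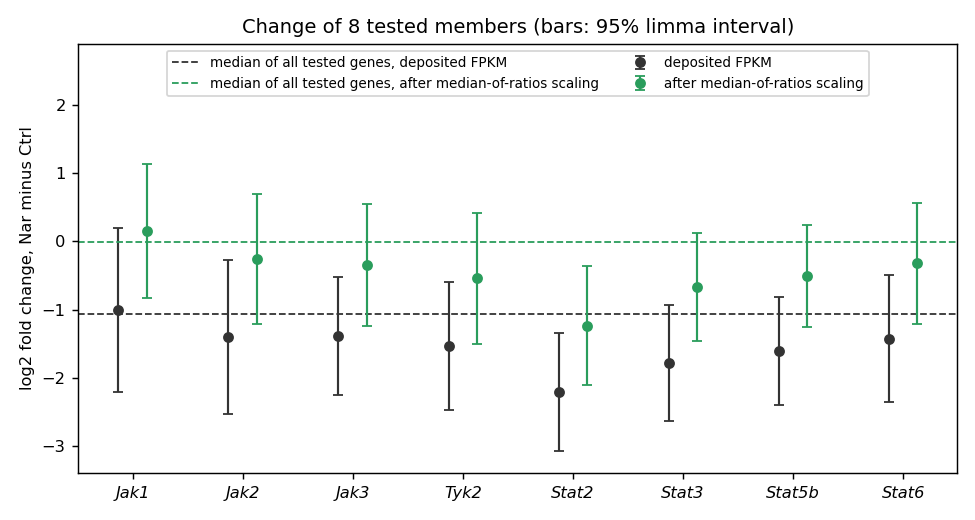
Log2 fold change (Nar minus Ctrl) of the 8 tested members with 95% limma intervals, from deposited FPKM (black) and after median-of-ratios scaling (green). Dashed lines give the all-gene median on each scale, -1.07 for deposited FPKM. Stat2 is lowest on both, at -2.21 and -1.24, and Jak1 highest, at -1.01 and 0.15.

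The members split into 3 patterns by how the 2 control libraries differed. On log2(Ctrl 3 / Ctrl 1), Jak2 stood at 1.04 and Jak1 at 0.68, both higher in Ctrl 3. Stat5b was at 0.17, Stat3 at -0.02, Stat2 at -0.03 and Stat5a at -0.04. Stat6 was at -0.69, Tyk2 at -0.82 and Jak3 at -0.83, all higher in Ctrl 1. The median of all tested genes was 0.14. Platelet marker genes were all higher in Ctrl 3, by 1.08 to 1.99. The median was -1.38 for monocyte marker genes (range -3.19 to 0.34) and -0.96 for tested T cell ones (-1.25 to 0.19). It was -1.01 for NK cell (-1.08 to 0.43), -0.37 for B cell (-1.43 to -0.14) and -0.16 for neutrophil marker genes (-0.79 to 0.34). Red cell marker genes lay between 0.21 and 1.32. Each of these values sets 1 library against 1 library, so none has an error or a test.

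**Figure D4:**
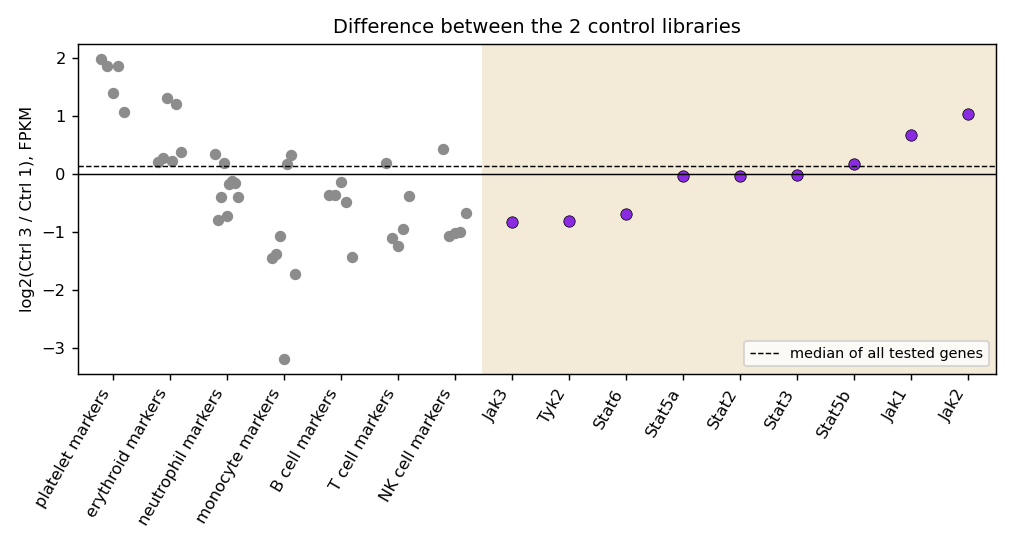
Log2 ratio of FPKM in Ctrl 3 to FPKM in Ctrl 1 for marker genes of 7 blood cell types (grey, 1 point per tested gene) and the 9 members (purple, shaded). Jak1 and Jak2 lie above 0, as the platelet and red cell markers do, Jak3, Tyk2 and Stat6 lie below 0, and the others lie near 0.

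Cell type marker genes also differed between Nar and Ctrl. All 9 neutrophil markers fell (limma), where 39.6% of all tested genes did, with a median log2 fold change of -3.77, and their summed FPKM was 1383 to 1665 in Ctrl and 101 to 159 in Nar. Of 7 monocyte markers 5 fell (median -1.73), with sums of 369 to 422 in Ctrl and 100.0 to 146 in Nar. Of 5 NK cell markers 1 fell (Gzma, named because it was the only one, median of the list -1.18, sums of 18.0 to 19.7 and 4.67 to 9.42). None of the 5 B cell (median -0.34, sums of 27.5 to 35.6 and 26.9 to 28.5), 5 tested of 6 T cell (median of the 5 -0.47, sums over all 6 of 4.55 to 7.24 and 3.08 to 4.46), 5 platelet (median -1.31, sums of 617 to 1994 and 403 to 510) or 6 red cell markers (median 0.35, sums of 8588 to 10175 and 9493 to 10176) passed. After median-of-ratios scaling 4 neutrophil, 1 monocyte and 0 NK cell markers fell, where 0.599% of all tested genes did, and with haemoglobin genes removed 9, 1 and 0 did, where 5.01% did (limma). The part of these differences in the lower Jak and Stat levels was not tested.

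The genes around the kinases are given by role, from the cytokines to the genes that STAT proteins switch on, and their counts are read against the 39.6% of all tested genes that fell. With any 1 library left out, at most 3 genes of a list were still called by limma, and with haemoglobin genes removed 1 ligand (Osm), 5 receptors, 0 partners, 1 inhibitor (Socs3) and 3 targets (Irf1, Junb and Mcl1) were, where 5.01% of all tested genes fell. Of 22 ligand genes, 15 had values, 2 of them at 0 throughout, and 2 were abundant enough to test. Both fell. Osm, the gene of oncostatin M and a cytokine of the interleukin-6 family, had 4.49 FPKM (Ctrl 1) and 2.55 (Ctrl 3) against 0.18 (Nar 1) and 0.36 (Nar 3), a log2 fold change of -3.28 (limma adjusted p = 0.00427). Il15, which supports NK cells, had 0.94 and 1.2 FPKM in Ctrl and 0.24 and 0.41 in Nar (log2 fold change -1.48, limma adjusted p = 0.0256).

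Of 34 receptor genes, 20 were tested and 12 fell, with 0 rising and a median log2 fold change of -1.42. Csf3r, the granulocyte growth factor receptor, had 37.07 FPKM (Ctrl 1) and 22.88 (Ctrl 3) against 2.49 (Nar 1) and 3.20 (Nar 3), a log2 fold change of -3.32 (limma adjusted p = 0.00510). Il13ra1, a chain of the receptor that signals to Stat6, had 2.98 and 2.87 FPKM in Ctrl and 0.27 and 0.38 in Nar, a log2 fold change of -2.84 (limma adjusted p = 0.00383). At the other end, Ifnar2, a chain of the type I interferon receptor, had 4.97 and 9.77 FPKM in Ctrl and 4.31 and 5.29 in Nar, and the groups overlapped (log2 fold change -0.54, limma adjusted p = 0.358). Il7r, the interleukin-7 receptor of lymphocytes, also overlapped, with 1.94 and 0.58 FPKM in Ctrl and 1.08 and 0.82 in Nar (log2 fold change -0.18, limma adjusted p = 0.765).

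Among 14 partner genes, other factors that act beside the members, 9 were tested and 7 fell, with a median log2 fold change of -1.41. Irf9, the DNA-binding part of ISGF3, had 1.98 and 1.68 FPKM in Ctrl and 0.79 in both Nar libraries, a log2 fold change of -1.11 (limma adjusted p = 0.0348). The value of Irf9 lay near the all-gene median of -1.07, and after median-of-ratios scaling it was -0.03 (limma adjusted p = 0.991). Stat4, the factor of interleukin-12 signalling in lymphocytes, had 1.02 and 0.85 FPKM in Ctrl and 0.46 and 0.51 in Nar and did not pass (log2 fold change -0.82, limma adjusted p = 0.0855). The adaptor gene Grb2 fell by 1.40 on the log2 scale, and the coactivator genes Ep300 and Ncoa1 by 1.70 and 1.68 (limma adjusted p = 0.0320, 0.0134 and 0.0258).

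Of 20 inhibitor genes, 11 were tested and 5 fell, with a median log2 fold change of -1.37. Socs3, which blocks signalling to Stat3 and is itself switched on by it, fell furthest, from 8.37 and 9.15 FPKM in Ctrl to 0.90 and 0.86 in Nar (log2 fold change -3.18, limma adjusted p = 0.00385). Pias1, which binds activated STAT proteins, had 1.17 and 1.37 FPKM in Ctrl and 0.25 and 0.15 in Nar (log2 fold change -2.21, limma adjusted p = 0.00878). Ptprc, the CD45 phosphatase of leukocytes, went from 18.13 and 9.29 to 4.81 and 2.49 FPKM (log2 fold change -1.88, limma adjusted p = 0.0309). The phosphatase genes Ptpn1 and Ptpn11 and the adaptor gene Sh2b3, which restrains Jak2, did not pass, with log2 fold changes of -1.37, -1.01 and -0.89 and limma adjusted p-values of 0.0608, 0.175 and 0.215. Like Jak2 they were higher in Ctrl 3 than in Ctrl 1, by 1.07, 1.56 and 1.38 on the log2 scale. Usp18, an interferon-induced brake on the type I receptor, overlapped between the groups, with 0.61 and 1.09 FPKM in Ctrl and 0.43 and 0.99 in Nar (limma adjusted p = 0.606).

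Of 13 target genes, 12 were tested and 6 fell, with a median log2 fold change of -1.39. Irf1, a classic interferon target, went from 6.50 and 8.85 FPKM in Ctrl to 0.96 and 0.60 in Nar (log2 fold change -3.16, limma adjusted p = 0.00427). Junb, which Stat3 can switch on, went from 28.70 and 20.55 to 2.15 and 3.24 FPKM (log2 fold change -3.15, limma adjusted p = 0.00553). Bcl2l1, a survival gene of Stat5 in red cell precursors, had 24.65 FPKM (Ctrl 1) and 55.00 (Ctrl 3) against 49.40 (Nar 1) and 32.52 (Nar 3), and Myc had 0.79 and 0.55 FPKM in Ctrl and 0.57 and 0.60 in Nar. Neither passed, with log2 fold changes of 0.12 and -0.15 (limma adjusted p = 0.858 and 0.730). Ccnd3, a cell cycle gene, had 25.69, 55.23, 20.80 and 12.43 FPKM and did not pass either (log2 fold change -1.22, limma adjusted p = 0.104).

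**Figure D5:**
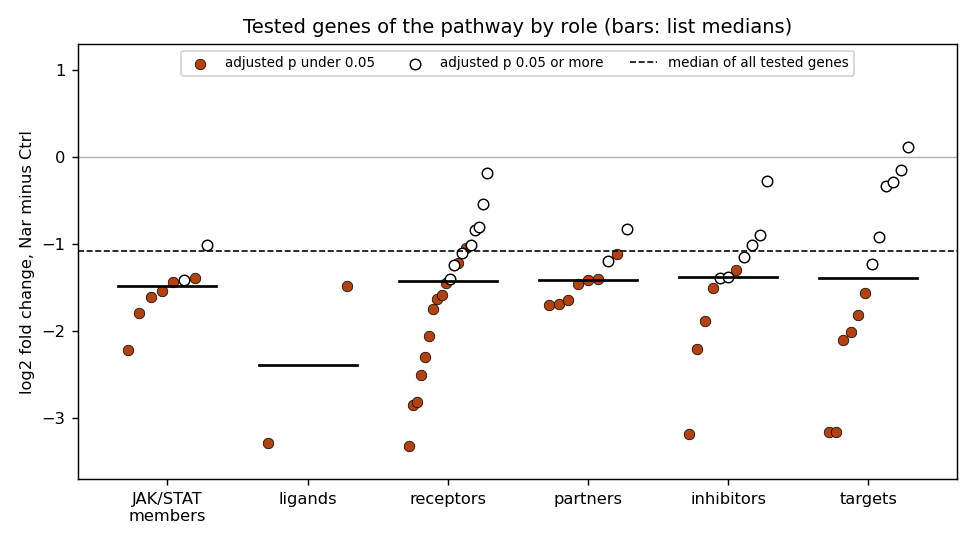
Log2 fold change (Nar minus Ctrl) of the tested members and of tested genes in 5 lists by role, with 1 point per gene, filled where the limma adjusted p was under 0.05. Solid bars give list medians, which lie between -2.38 for the 2 ligands and -1.37 for the inhibitors, and the dashed line gives the all-gene median, -1.07. The 2 ligands passed the filter on mean FPKM only through Ctrl.

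Once libraries were set level by median-of-ratios scaling, 1 of 11 inhibitor and 1 of 12 target genes and none of the other lists fell by limma, where 0.599% of all tested genes did. These were Socs3 with a log2 fold change of -2.06 (adjusted p = 0.0430) and Irf1 with -2.05 (adjusted p = 0.0436). The promoter windows of both hold the gamma-activated site TTCNNNGAA. In Socs3 it begins 154 bases before the start that the RefSeq promoter table uses, but that start lies inside the outer bounds of the gene (117966079 to 117970336 on chromosome 11, GRCm38.p6), so the sequence is not printed. The Irf1 window (chr11:53769764-53770013, GRCm38.p6, plus strand) ends at the gene's outer start and is shown with the match, which begins 90 bases before that start, in capitals.
Irf1: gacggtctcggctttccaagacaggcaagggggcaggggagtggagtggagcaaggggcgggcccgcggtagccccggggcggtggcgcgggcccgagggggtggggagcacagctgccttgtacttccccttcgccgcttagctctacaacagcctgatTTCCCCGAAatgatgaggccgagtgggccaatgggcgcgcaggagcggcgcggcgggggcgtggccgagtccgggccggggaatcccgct
Among the 12 inhibitor genes found in the promoter table, 1 held this pattern (Socs3), and among 10 target genes 2 did (Irf1 and Bcl6). Among 28 receptor genes 5 did (Csf2rb2, Ifnar2, Il12rb2, Il7r and Prlr, named for their match), against 8.13% of all 27025 genes. Bcl6, named here for its match, had 2.03 and 0.67 FPKM in Ctrl and 0.35 and 0.32 in Nar (log2 fold change -1.56, limma adjusted p = 0.0389).

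Outside the lists, Susd6 and Cop1 were among the 3 tested genes whose profile over the 4 libraries was nearest to the mean profile of the tested members. The root mean square difference on centred log2(FPKM + 0.1) was 0.03 for Susd6 and 0.04 for Cop1. Susd6 had 1.52 and 1.5 FPKM in Ctrl and 0.57 and 0.37 in Nar, and Cop1 had 1.34 and 1.36 in Ctrl and 0.48 and 0.35 in Nar. With 4 libraries such likeness describes the values and no more.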

How the data were processed

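Blood messenger RNA of 2 Nar-treated and 2 control mice or pools was sequenced. The study's methods name bowtie-2 for mapping, while the submitters' processing notes name TopHat2, Cufflinks and GRCm38. Versions and the annotation are not given in the sources used here. For each gene the authors deposited FPKM to 2 decimals, with 5313 of 23136 genes blank in all 4 libraries. Each column was matched to 1 library by its name, and 0 columns were left over. Depth is unknown, so precision rests on the spread between libraries.

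The 5339 genes averaging at least 0.5 FPKM were fitted as log2(FPKM + 0.1) with limma 3.58.1 in R 4.3.3 (lmFit, eBayes with trend) and Benjamini-Hochberg adjustment. DEGseq, named in the study's methods, needs read numbers and was not run. The replicate numbers 1 and 3 are shared between groups, but no source says that they pair mice.

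Members and lists were chosen with earlier results of these data known. Named genes were the members, in each list the 3 of highest mean FPKM and the 2 lowest and 2 highest log2 fold changes, and the 3 nearest profiles. Some genes that this rule picks are not reported here. Also tried were pseudocounts of 1 and 0.01, a minimum of 5 FPKM or none, rescaling to TPM, removal of haemoglobin genes, median-of-ratios scaling, no trend, a replicate block and each library left out. Positions and promoter sequences are RefSeq's for GRCm38.p6, the patch release of the build in the notes, and 250 bases upstream were searched on both strands. Plots used matplotlib 3.10.9 in Python 3.11.15.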

Additional observations from a re-analysis of the deposited data

How the results depend on the processing

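The calls kept their number (6 of 8 members) with a pseudocount of 1 or 0.01, TPM rescaling, no trend and the replicate block, and the cause of each change below was not tested. Median-of-ratios scaling left 0 members, 0 ligands, 0 receptors, 0 partners, 1 inhibitor, 1 target and 32 genes in all lower by limma, moved the member median to -0.43 and reversed Jak1 to 0.15. With haemoglobin genes removed the counts were 0 members, 1 ligand, 5 receptors, 0 partners, 1 inhibitor, 3 targets and 267 genes, and the member median was -0.99. Without the filter all of these counts were 0 (of 16382 genes, 4978 of them under 0.05 without adjustment). A minimum of 5 FPKM left 116 genes lower, 0 of 1 member (Jak1, at -1.01), 1 receptor, 1 inhibitor and 2 targets, with fewer genes tested and no value for ligands or partners, none of which reached that level. A pseudocount of 1 moved the member median to -0.99.

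Leaving out each library in turn, the counts lower by limma ranged from 0 to 254 over all genes, 0 to 1 for members, 0 to 1 for ligands, 0 to 3 for receptors, 0 to 0 for partners, 0 to 2 for inhibitors and 0 to 3 for targets, and the member median from -1.77 to -1.33. The replicate block gave 6 members, 1802 genes (33.8%) and 4 of 9 partners lower in limma. Among genes named above, Grb2 (adjusted p = 0.0776), Irf9 (0.0525) and Gzma (0.0653) were not called in the block, while the NK cell markers Klrb1c (0.0449) and Ncr1 (0.0311) were. Same-numbered libraries had a correlation of deviations of -0.15 across genes, and the crossed replicate block, chosen after seeing the data, gave 8 members, 8 inhibitors and 3211 genes (60.1%) lower. Over all alternatives, 61 of 105 values of single members kept direction and side of the threshold, 41 lost the call, 2 gained it (Jak1 and Jak2 in the crossed block) and 1 reversed.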
